A study of Mus musculus with 6 samples.

Results

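The departure of the Wrn and PARP-1 double mutant from the additive sum of the single mutants was measured gene by gene in cultured mouse embryonic fibroblasts. For each gene it is the mean log2 ratio of the double mutant minus that of the Wrn mutant minus that of the PARP-1 null. All 6 arrays of the study entered, and all 16504 genes with 1 symbol were kept. A value of 0 means that the 2 single effects add on the log2 scale, which is the same as multiplying as folds. A value above 0 means a higher double-mutant level than that sum, and a value below 0 a lower one.

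Wrn encodes a RecQ helicase with an exonuclease part, and its loss causes Werner syndrome in humans. PARP-1 binds DNA strand breaks and builds chains of ADP-ribose on proteins around them. Both proteins act in DNA repair and at replication forks, and a comparison of the double mutant with both single mutants asks whether the combined loss gives more, less or other than both losses do apart.

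Each of 3 mutant genotypes was hybridised on 2 arrays, always against wild-type cells. The Wrn mutant carries a deletion in the helicase part that keeps the reading frame, the PARP-1 null lacks PARP-1, and the double mutant has both changes. All groups, wild type included, were on a 129/Sv-Black Swiss background and came from embryos of 15.5 days. RNA was cytoplasmic, from passage 2 (10 doublings, per the design text), and each pool held 3 embryos of 1 litter, with another litter for a second pool. The second double-mutant array has a strain label that reads wild type, while its title and source name the double mutant.

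Wild-type RNA was in Cy5 and mutant RNA in Cy3 on every array. The sum of single effects holds the wild-type and dye part of the ratio in both of its terms, and the double mutant holds it in 1. A dye bias common to all arrays therefore stays in the departure with its sign turned. The double mutant minus the mean of both single mutants, called the balanced difference here, is free of a part that all arrays share. It is given beside the departure for some genes and lists. How the wild-type pools were spread over the arrays was not stated, so p-values cover only array-to-array spread, part of which may be technical.

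Positive values are read as mutant over wild type. This is likely and not certain, since it rests on Parp1. Against it, Agilent's usual ratio of Cy5 over Cy3, with the dyes stated, would be wild type over mutant, and a turned sign would mirror every direction below. Parp1 read -0.12 and -0.31 on the Wrn mutant arrays, -2.61 and -2.30 with PARP-1 null cells, and -2.97 and -2.59 with double-mutant cells. Its low values are those of the 4 arrays with PARP-1-deficient cells, the second double-mutant array among them. The Parp1 departure was -0.11 (SE 0.24, n = 2 arrays per genotype, limma adjusted p = 0.918), so the double mutant lay at the sum. Wrn mRNA read 0.84 and 0.58, then 0.05 and -0.29, then 0.25 and 0.71, with a departure of -0.10 (adjusted p = 0.956 in limma). Because the deletion keeps the reading frame, mRNA level does not check the Wrn genotype unless a probe lies in the deleted part, and the probe's position was not used here.

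Ratios give no absolute level, so the labelled cell type could be checked only against wild type. The median ratio of 11 fibroblast markers was between 0.06 and 1.02 on the 6 arrays. Macrophage markers, 9 of 11 measured, had medians of 1.15 and 0.25 in the Wrn mutant and between -0.54 and -0.20 on the other 4 arrays. The 4 mesothelial markers had medians of 2.07 and -0.69 in the 2 Wrn mutant arrays and between 1.86 and 2.99 elsewhere. In bulk RNA, fewer cells of a type and less RNA per cell cannot be told apart.

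No gene passed the test of the departure. In limma, with Benjamini-Hochberg adjustment over all 20679 features, 0 of 16504 genes (0%) reached an adjusted p of 0.05, and the smallest adjusted p was 0.0628. At an unadjusted p below 0.05 there were 1963 genes (11.9%), of which 1237 (7.5%) lay above the sum and 726 (4.4%) below it. The balanced difference also gave 0 genes (0%), with 2097 (12.7%) at an unadjusted p below 0.05. The count of genes past the adjusted threshold rested on single arrays: it was 356 without the first Wrn mutant array, 265 without the first PARP-1 null array, 14 without the first and 13 without the second double-mutant array. It was 0 without the second Wrn mutant or the second PARP-1 null array. Leaving out features with an exact 0 on any array gave 80 genes (0.651%), and leaving out the spots without a single symbol as well gave 0.

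Size and repeatability are therefore described without a test. Over all genes, the 2 arrays of a genotype had Pearson correlations of 0.61 (Wrn mutant), 0.59 (PARP-1 null) and 0.73 (double mutant). Pairs of different genotypes ran from 0.37 to 0.75, so duplicates were not always the most alike. The first PARP-1 null array correlated at 0.74 and 0.75 with the double-mutant arrays, above its value with its own duplicate. With 2 arrays per genotype there are 8 ways to take 1 array of each, and 1492 genes (9.04%) had a departure of at least 1 in size whose sign was the same in all 8. Of these, 853 (5.17%) lay above the sum and 639 (3.87%) below it. They fall into 6 patterns by where the single-mutant and double-mutant means lie. The largest, with 673 genes (45.1%), is called other and holds the genes that meet none of the named descriptions below.

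**Figure D1:**
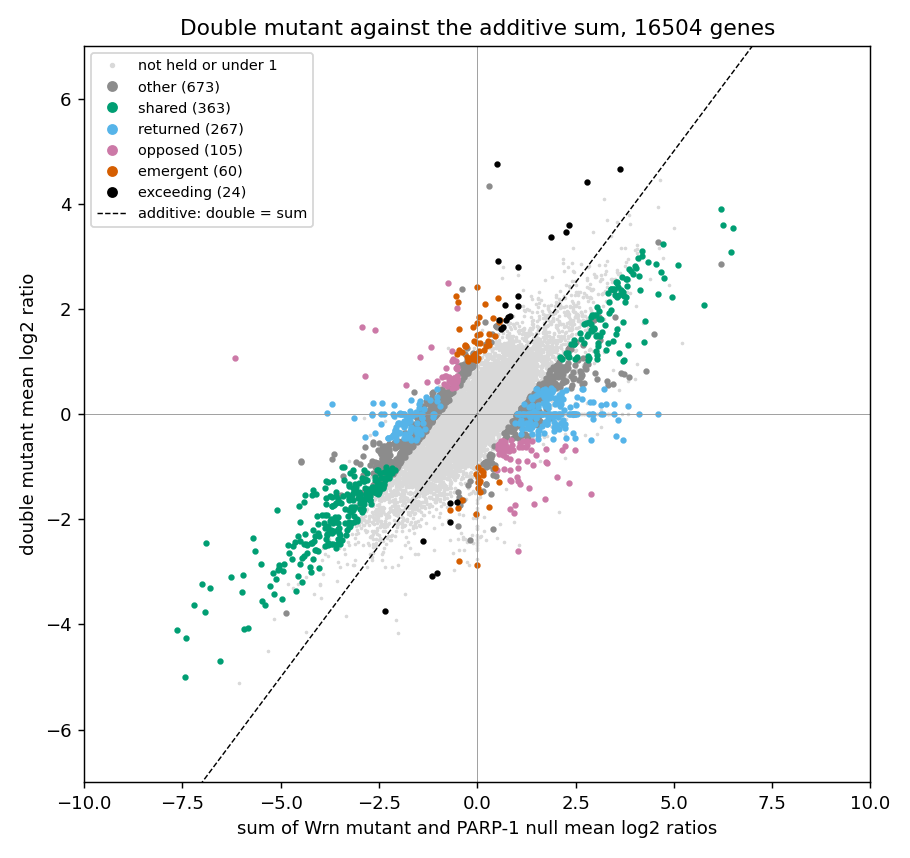
Mean log2 ratio of the double mutant against the sum of the single-mutant means for 16504 genes, 1 point each; the dashed line is additivity. Coloured points are the 1492 genes whose departure is at least 1 in size with 1 sign in all 8 array choices, by pattern, with the number of genes in the legend. The 363 genes called shared lie far along the axis and on the inner side of the line, and the 60 called emergent lie near 0 on the horizontal axis.

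The most common named pattern was a shared change that did not add. In 363 genes all 3 genotype means lay at least 1 from 0 on the same side and the double mutant fell short of the sum. For the 255 of them that were low in all genotypes, the median was -1.67 for the Wrn mutant, -1.73 for the PARP-1 null and -1.80 for the double mutant. Their median departure was 1.52, while the median balanced difference was -0.17. For the 108 high genes the medians were 1.59, 1.73 and 1.83, with a median departure of -1.32 and a balanced difference of 0.24. Over all genes, 2810 (17%) were above 0 on all 6 arrays and 77.9% of those had a departure below 0. The 2679 genes (16.2%) below 0 on all 6 arrays had a departure above 0 in 82.2% of cases. Choosing genes with 1 sign on all 6 arrays itself favours a departure of the opposite sign, so these shares support nothing further. A part of the ratio common to all arrays, such as a dye bias, and an equal response in all mutants cannot be told apart here.

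Igf2, the imprinted growth factor of fetal growth, shows the pattern. It read 2.47 and 2.81 on the Wrn mutant arrays, 2.13 and 2.49 with PARP-1 null cells, and 2.28 and 2.17 with double-mutant cells, so all 6 arrays lie well above wild type, with both double-mutant arrays below both Wrn mutant arrays and within the range of the PARP-1 null. Its departure was -2.73 (SE 0.23, adjusted p = 0.0628 in limma) and its balanced difference -0.25. Pdgfrl, a receptor-like relative of the PDGF receptors, read 2.90 and 3.48, 2.90 and 3.20, then 3.57 and 3.61, with a departure of -2.65 and a balanced difference of 0.47. Aldh1a1, a retinaldehyde dehydrogenase, had a departure of -2.97, and Rarres2, which encodes the adipokine chemerin, one of -2.53.

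On the low side, Cited4, a partner of the CBP and p300 coactivators, read -2.88 and -3.58, -2.91 and -3.15, then -3.05 and -3.14. The 3 genotypes overlap, the departure was 3.17 (SE 0.34) and the balanced difference 0.03. Defb6, a beta-defensin, gave 2.89 and -0.08 for the same measures, and Cplx1, a complexin of synaptic vesicle release, gave 3.77 and 0.27. Prl2c3, a prolactin family member with near-identical neighbours that a probe may not separate, had a departure of 4.45 with a range of 2.51 to 6.39 over the 8 array choices.

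In 267 genes the double-mutant mean lay within 0.5 of wild type although at least 1 single-mutant mean was 1 or more away. Since means were used, single double-mutant arrays can lie farther from wild type. The 172 of them below the sum had a median of 1.11 for the Wrn mutant, 0.87 for the PARP-1 null and 0.00 for the double mutant. The 95 above the sum had medians of -0.85, -1.07 and -0.14. Of these 267 genes, 151 had no exact 0 and no value at the bound of the deposited scale on any array, so some of the double-mutant values near 0 are exact zeros whose meaning is not stated.

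Bcl2l15, a BCL2 family member, was low in both single mutants and at wild-type level in the double mutant. It read -1.63 and -1.77 on the Wrn mutant arrays, -1.08 and -0.83 with PARP-1 null cells, and 0.23 and 0.18 with double-mutant cells. The 3 genotypes do not overlap, and the departure was 2.86 (SE 0.14, adjusted p = 0.0628 in limma), with a balanced difference of 1.53. Serpinb2, which encodes plasminogen activator inhibitor 2, read -2.34 and -2.45, -1.69 and -1.18, then 0.34 and -0.30. Its departure was 3.85 (SE 0.37, limma adjusted p = 0.0662) and its balanced difference 1.94. Rprd1b, a regulator of RNA polymerase II, was low in the PARP-1 null alone, at -1.86 and -2.10, and its departure was 2.28.

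Phyhd1, a dioxygenase, was the reverse case: 1.60 and 1.89 on the Wrn mutant arrays, 1.24 and 1.18 with PARP-1 null cells, and 0.30 and 0.17 with double-mutant cells. All 4 single-mutant arrays were above both double-mutant arrays, and the departure was -2.72 (SE 0.16, adjusted p = 0.0628 in limma). Scara5, a scavenger receptor that takes up ferritin, read 0.87 and 1.09, 2.42 and 2.76, then -0.80 and 0.58, with a departure of -3.68. Its double-mutant arrays lay on opposite sides of wild type, and only their mean of -0.11 was near it. Car6, a secreted carbonic anhydrase, had 1.18 and 0.04, 3.33 and 2.39, then 0.32 and 0.08, so 1 Wrn mutant array overlapped the double mutant. Its departure was -3.27 (SE 0.68).

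In 105 genes the double-mutant mean lay at least 0.5 from wild type on the side opposite to the sum, 64 of them below and 41 above. For the 64, the median was 0.86 for the Wrn mutant, 0.16 for the PARP-1 null and -0.72 for the double mutant. Mest, an imprinted gene of fetal mesoderm, read 2.48 and 2.17 on the Wrn mutant arrays, 0.14 and 0.21 with PARP-1 null cells, and -0.36 and -0.99 with double-mutant cells. The 3 genotypes are apart and in that order. Its departure was -3.17 (SE 0.32, limma adjusted p = 0.0726) and its balanced difference -1.93.

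Rtl3, a gene derived from a retrotransposon, read 2.06 and 0.92, 0.79 and 0.90, then -1.20 and -1.43, with a departure of -3.64. Aspn, the matrix proteoglycan asporin, read 0.94 and 1.88, -0.12 and 0.20, then -2.04 and -1.39, with a departure of -3.16. Both were above the double mutant on all single-mutant arrays. Cck, the peptide hormone cholecystokinin, went the other way, with -2.87 and -1.96 on the Wrn mutant arrays, -0.46 and 0.06 with PARP-1 null cells, and 0.94 and 2.25 with double-mutant cells. Its departure was 4.21 (SE 0.76, adjusted p = 0.196 in limma).

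The largest departure among the genes ranked by repeatability was that of Eif2s3y, a translation initiation factor on the Y chromosome. It read 0.84 and -4.48 on the Wrn mutant arrays, -5.33 and -3.37 with PARP-1 null cells, and 0.12 and 2.00 with double-mutant cells. The departure of 7.23 ranged from 2.65 to 11.81 over the array choices (SE 2.70, limma adjusted p = 0.431). Other Y-linked genes differed between arrays of 1 genotype too: Uty read 0.59 and -5.65 in the Wrn mutant, and Kdm5d 1.22 and -2.60. Xist, which is expressed from the inactive X chromosome, read 2.46 and 0.06 in the double mutant. No label gives the sexes of the pooled embryos, and their part in the result was not tested.

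Only 60 genes were emergent, with both single-mutant means within 0.5 of wild type and the double-mutant mean at least 1 away. In 40 of them the double mutant was above, with medians of -0.20 (Wrn mutant), 0.13 (PARP-1 null) and 1.34 (double mutant). Paip1, which binds poly(A)-binding protein in translation, read -0.05 and -0.05, -0.37 and -0.51, then 1.90 and 2.35. No single-mutant array came near the double mutant, and the departure was 2.61 (SE 0.22, adjusted p = 0.0628 in limma) with a balanced difference of 2.37. Lhx9, a LIM homeobox factor of gonad and limb development, read -0.38 and -0.33, 0.48 and 0.36, then 1.47 and 1.24, a departure of 1.29.

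The mitotic genes Cdc20 and Aurka and the origin factor Orc1 belong to this class and are described below. Among the 20 emergent genes below the sum, Apobr, a receptor for apolipoprotein B48, had a departure of -1.83, Pkia, an inhibitor of protein kinase A, one of -1.47, and Mmp11, the matrix protease stromelysin 3, one of -1.20. The uncharacterised 4833420G17Rik read 0.03 and 0.13, 0.07 and -0.31, then -1.72 and -2.09, a departure of -1.86.

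The rarest pattern, with 24 genes, was a double mutant beyond a sum that already pointed the same way. S100a8, a calcium-binding protein of neutrophils and monocytes, read -0.76 and -1.58 on the Wrn mutant arrays, 1.36 and 2.00 with PARP-1 null cells, and 4.89 and 4.64 with double-mutant cells. The genotypes do not overlap, the departure was 4.26 (SE 0.49, adjusted p = 0.0861 in limma) and the balanced difference 4.51. Chil3, a chitinase-like protein of activated macrophages, read -0.13 and -0.55, 0.78 and 1.98, then 2.99 and 2.62, a departure of 1.77. Penk, the enkephalin precursor, had a departure of 2.39 and Ifi202b, an interferon-inducible DNA-binding protein, one of 1.02.

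Ppbp, the platelet chemokine CXCL7, had nearly the same profile as S100a8 at -0.64 and -1.69, 1.36 and 1.59, then 4.72 and 3.94. Its departure was 4.02 (SE 0.60, limma adjusted p = 0.154), but its sum was too close to 0 for the class. Marco, a macrophage scavenger receptor, read -0.72 and -0.28, -0.39 and 0.60, then 2.47 and 2.28, with a departure of 2.77. Both Ppbp and Marco are in the class called other. Over the 38 measured macrophage and leukocyte genes the median departure was -0.46. The sign held above in 5 (13.2%), S100a8 and Marco among them, and below in 9 (23.7%), against 17.6% and 12.5% of all genes. Without the first Wrn mutant array, where the macrophage markers were highest, the median departure was 0.02.

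H2bc18, a histone H2B gene with near-identical relatives, read -0.000328 and -0.14 on the Wrn mutant arrays, 6.62 and 5.91 with PARP-1 null cells, and 3.07 and 2.65 with double-mutant cells. The double mutant therefore lay between the Wrn mutant and the PARP-1 null, with a departure of -3.33 (SE 0.38, adjusted p = 0.0868 in limma). Gpx2, a glutathione peroxidase of epithelia, read -1.36 and -1.50, -2.04 and -2.37, then -0.73 and -0.78, a departure of 2.88. Mcpt8, a protease of basophils and mast cells, had a departure of 3.60 and Lama1, a laminin chain of basement membranes, one of -2.89. H2bc18, Gpx2, Mcpt8 and Lama1 are all in the class called other.

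**Figure D2:**
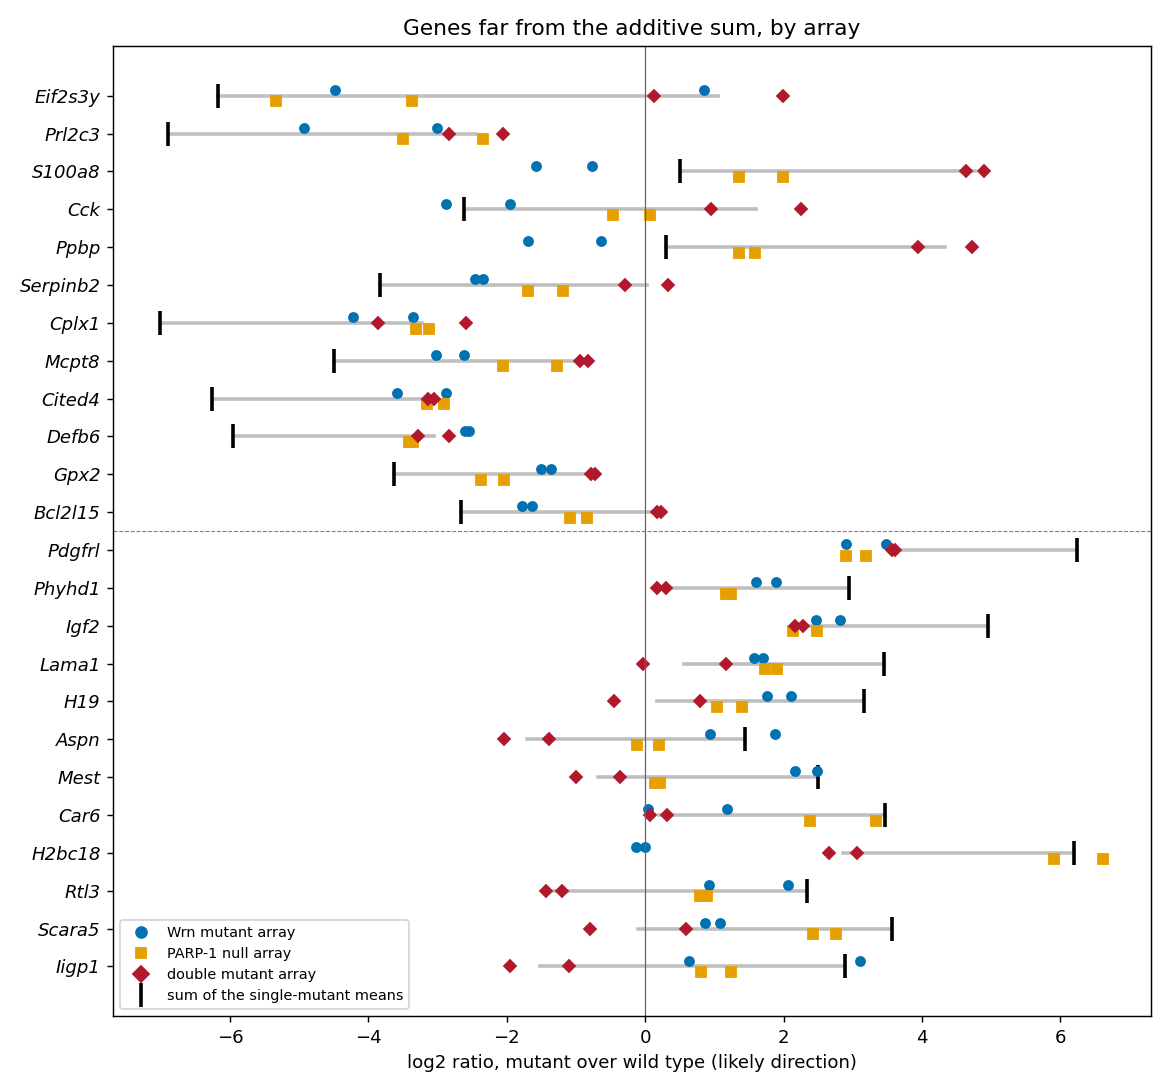
Log2 ratio of each array (horizontal axis) for the 12 genes above and the 12 below the additive sum with the largest departure in the array choice nearest 0; blue circles are Wrn mutant, orange squares PARP-1 null, red diamonds double mutant, and the black bar is the sum of the single-mutant means. None passed the adjusted threshold. For Cited4, Igf2 and Pdgfrl all arrays sit together far from the bar, while for S100a8, Ppbp and Mest the double mutant is apart from both single mutants.

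Genes of cell division lay above the sum as a group. Their products copy the genome in S phase or build the spindle and part the chromosomes, and most are made only in cycling cells. In the mitosis list, the departure of 36 of 48 genes (75%) was above 0 in all 8 array choices and that of 0 was below, against 17.6% above and 12.5% below over all genes. At an unadjusted p below 0.05 there were 22 above and 0 below, against 7.5% and 4.4% of all genes, and 0 passed the adjusted threshold. The median departure was 0.77, between 0.62 and 1.01 over the 8 array choices, where the median over all genes was 0.00.

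The list medians by array were -0.38 and -0.24 on the Wrn mutant arrays, -0.12 and 0.16 with PARP-1 null cells, and 0.68 and 0.47 with double-mutant cells. Both double-mutant arrays were above the other 4, so the list sat higher in the double mutant than in either single mutant. The median balanced difference was 0.70. Cdc20, which activates the anaphase-promoting complex, read -0.52 and -0.26, -0.14 and -0.13, then 1.32 and 0.95. It lay near wild type in both single mutants, and the departure was 1.66 (SE 0.21, adjusted p = 0.108 in limma).

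Aurka, a kinase of spindle poles, read -0.57 and -0.30, -0.09 and 0.18, then 1.32 and 1.03, a departure of 1.57. Kif20b, a kinesin of cytokinesis, had a departure of 1.08, and Anln, the actin-binding anillin of the cleavage furrow, one of 1.52. The Anln value is the mean of 2 spots, whose departures differed by 0.94. For Anln the Wrn mutant arrays differed, at -0.45 and -1.18, and the double mutant was near wild type at 0.31 and 0.01.

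DNA replication genes had a median departure of 0.82, between 0.49 and 1.23 over the array choices. Their median balanced difference was 0.56. The sign held above in 34 of 46 genes (73.9%) and below in 0, with 20 above and 0 below at an unadjusted p below 0.05. Over all genes the sign held above in 17.6% and below in 12.5%, and the unadjusted shares were 7.5% above and 4.4% below. By array the list medians were -0.56 and -0.08 on the Wrn mutant arrays, -0.10 and -0.04 with PARP-1 null cells, and 0.63 and 0.31 with double-mutant cells. The first Wrn mutant array was the lowest, and without it the median departure was 0.59. Orc1, a subunit of the origin recognition complex, read -0.55 and -0.17, 0.46 and 0.40, then 1.82 and 1.24, a departure of 1.46.

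Rpa1, the large subunit of the single-strand binding protein RPA, read -0.75 and -0.73, 0.32 and 0.20, then 1.25 and 0.59. It was low in the Wrn mutant and high in the double mutant, and its departure was 1.41 (SE 0.31, limma adjusted p = 0.246). Ccne1, cyclin E1 of S phase entry, had a departure of 1.50. Chaf1a, a subunit of chromatin assembly factor 1, differed in kind: it read -1.13 and -0.93, -0.72 and -0.60, then -0.60 and -0.62, so it was below wild type everywhere. Its departure of 1.08 came with a balanced difference of 0.24.

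Repair genes shared this in part. In the list of strand break and crosslink repair, 15 of 40 (37.5%) lay above and 1 (2.5%) below with a held sign. Over all genes the shares were 17.6% and 12.5%. The median departure of the list was 0.28, with a median balanced difference of 0.18. Its medians by array were -0.32 and -0.07, -0.05 and -0.12, then 0.00 and 0.00. Brca2, a protein of homologous recombination, read -0.35 and -0.36, 0.00 and -0.32, then 1.08 and 0.25, a departure of 1.18. Recql4, another RecQ helicase, had a departure of 1.09, Fancc of the Fanconi anaemia core complex one of 1.23, and Brca1 one of 0.77. Trp53bp1, a damage response protein that limits end resection, was the 1 gene held below, at -0.36. Base excision repair and PARP family genes had a median departure of 0.03, with 2 of 29 (6.9%) held above and 5 (17.2%) held below. Among those below were Parp9 at -1.63 and Parp12 at -1.24, members whose mRNAs are known to be inducible by interferon.

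Interferon response genes were the list farthest below the sum. Interferons switch on antiviral effectors, many of them through the interferon-stimulated response element in their promoters. The median departure of 52 genes was -1.09, between -1.35 and -0.70 over the array choices. Their median balanced difference was -0.62. The sign held below in 30 genes (57.7%) and above in 3, with 18 below and 2 above at an unadjusted p below 0.05, and 0 passed the adjusted threshold. Over all genes the sign held below in 12.5% and above in 17.6%, and the unadjusted shares were 4.4% below and 7.5% above. List medians by array were 0.21 and 1.11 on the Wrn mutant arrays, 0.00 and -0.03 with PARP-1 null cells, and -0.34 and -0.59 with double-mutant cells. The list thus sat highest in the Wrn mutant, most of all on its second array, and lowest in the double mutant. Without the second Wrn mutant array the median departure was -0.79, and without the first it was -1.52.

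Ifit1, which binds foreign RNA ends, read 0.66 and 2.10 on the Wrn mutant arrays, 0.51 and 0.28 with PARP-1 null cells, and -0.89 and -0.98 with double-mutant cells. All single-mutant arrays were above wild type and both double-mutant arrays below, with a departure of -2.71 (SE 0.67, adjusted p = 0.274 in limma) and a balanced difference of -1.83. Iigp1, an immunity-related GTPase, read 0.63 and 3.11, 0.80 and 1.24, then -1.10 and -1.95, a departure of -4.42 (SE 1.20, limma adjusted p = 0.305). Oasl2, of the oligoadenylate synthetase family, had a departure of -2.83, and Ifi47, another such GTPase, one of -2.06. Cxcl10, a T cell chemokine, read 0.18 and 0.02, -0.75 and 1.14, then -1.56 and -1.99, a departure of -2.07.

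The transcription factor Irf7, which amplifies the response, read -0.23 and 0.26, -0.70 and -0.71, then -1.60 and -2.51. It was not raised in the Wrn mutant, and its departure was -1.36. Ifi205, with relatives of like sequence, read 0.15 and 1.00, -1.54 and -1.67, then -3.35 and -2.70, a departure of -1.99. The 3 genes whose sign held above the sum were Ifi202b, Rsad2 and Psmb10. Ifi202b read -1.53 and -1.37, 5.10 and 5.08, then 4.53 and 4.80, so the double mutant was near the PARP-1 null. Rsad2, the antiviral protein viperin, was below wild type on all arrays and its departure was 0.99.

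**Figure D3:**
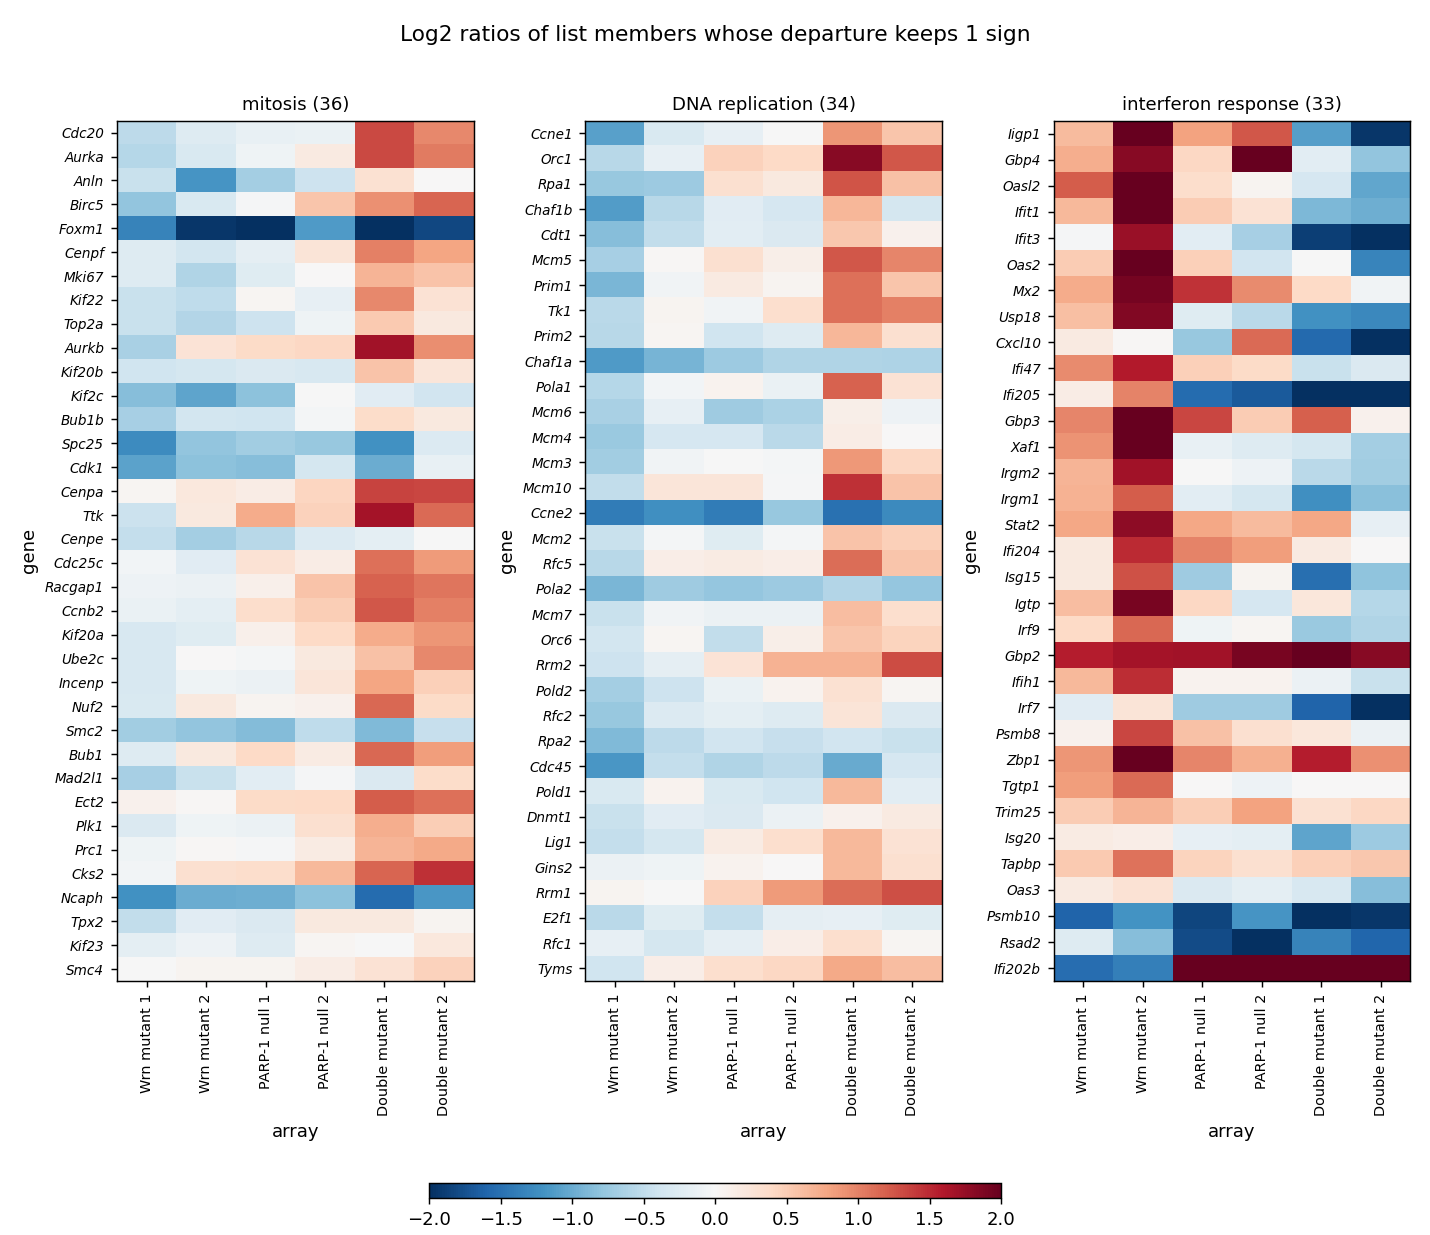
Log2 ratio of each array (columns) for the members of 3 gene lists (rows) whose departure has 1 sign in all 8 array choices, with 36 mitosis, 34 DNA replication and 33 interferon response genes; red is above and blue below wild type, and colours stop at 2 in size. Most mitosis and replication genes are redder in both double-mutant columns than in the single mutants, and most interferon genes are reddest in the second Wrn mutant column and blue in the double mutant.

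Promoters of these lists were searched for known elements. The search took 250 bases before the RefSeq start of each gene, in GRCm38.p6, on both strands. The cell cycle homology region, or CHR, was searched as TTTGAA or TTCGAA, an element bound by the DREAM and MuvB complexes in late cell cycle genes. It was in 13 of 40 mitosis promoters (32.5%), in 6 of 38 replication promoters (15.8%) and in 14.3% of 13221 promoters of all measured genes. The CCAAT box, searched as CCAAT, was in 72.5% of mitosis and 65.8% of replication promoters, against 36% of all. The interferon-stimulated response element was searched as GAAA, any pair of bases and GAAA, and was in 18 of 42 interferon promoters (42.9%), against 2.84% of all. These shares describe the lists, and a match is not a bound site.

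Among interferon genes whose departure was below 0 in all array choices, 13 of 23 promoters (56.5%) held that element, and of those whose sign did not hold, 4 of 16 (25%) did, as did 1 of 3 (33.3%) of those held above. The CHR was in 37.9% of mitosis promoters held above and 18.2% of those not held, and in replication promoters the shares ran the other way, at 13.8% and 22.2%. These groups are small and the differences were not tested. Examples that hold the element are shown to let it be seen in place. They are the members holding it with the largest repeatable departure, outside a chromosome that was left out of the choice. Capitals mark the CHR in the first 3 and the response element in the last 3, on the strand of the gene, 5′ to 3′, and a CHR or response element on the other strand appears as its reverse complement.

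Cdc20, chr4:118437344-118437391, minus strand: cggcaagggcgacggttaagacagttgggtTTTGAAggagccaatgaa

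Mki67, chr7:135716442-135716507, minus strand: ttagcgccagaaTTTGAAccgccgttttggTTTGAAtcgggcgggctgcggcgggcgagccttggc

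Top2a, chr11:99024190-99024242, minus strand: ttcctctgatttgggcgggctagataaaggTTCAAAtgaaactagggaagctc

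Ifit1, chr19:34640774-34640843, plus strand: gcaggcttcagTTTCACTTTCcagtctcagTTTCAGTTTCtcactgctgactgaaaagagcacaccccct

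Ifit3, chr19:34583377-34583446, plus strand: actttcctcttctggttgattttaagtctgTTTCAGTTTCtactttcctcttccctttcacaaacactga

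Irgm1, chr11:48871421-48871474, minus strand: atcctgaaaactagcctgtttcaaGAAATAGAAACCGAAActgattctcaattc

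In Cdc20 the CHR ends 12 bases before the start, with a CCAAT box after it. In Top2a, the DNA topoisomerase of mitotic chromosomes, the CHR nearest the start ends 17 bases before it. Mki67, which coats mitotic chromosomes, holds a pair of CHR copies in the stretch shown. In Irgm1 the response element occurs in overlapping copies that end 14 bases before the start. Mki67, Top2a, Ifit3 and Irgm1 are among the genes drawn by array in the map of list members.

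Matrix and imprinted genes also lay below the sum, less uniformly. For 43 extracellular matrix genes the median departure was -0.68, but between -1.48 and 0.30 over the array choices. The sign held below in 13 (30.2%) and above in 2 (4.65%), against 12.5% and 17.6% of all genes. Without the first double-mutant array the median departure was -0.14. Ogn, the proteoglycan osteoglycin, read 1.51 and 1.60, 0.59 and 0.73, then -0.18 and 0.35, a departure of -2.13 (SE 0.26, adjusted p = 0.0971 in limma). Col11a1, a fibrillar collagen chain, had a departure of -1.80 and Timp3, an inhibitor of matrix proteases, one of -2.29. Omd, a proteoglycan outside the list, had 0.92 and 0.87, 1.23 and 1.40, then 0.59 and 0.65, a departure of -1.59. Mmp3, the protease stromelysin 1, and Timp1 were the 2 genes held above, at 3.60 and 1.76.

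Fibroblast markers overlap this list, and their median departure was -1.04. Their part in the list's value was not tested. Col1a2, a chain of collagen I, read 1.07 and 1.58, 1.56 and 1.97, then 1.19 and 2.41, so the genotypes overlapped and the departure of -1.29 came with a balanced difference of 0.25. The median balanced difference of the whole matrix list was -0.15.

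For 35 imprinted genes, which are expressed from 1 parental copy, the median departure was -0.38, between -0.58 and 0.00. Their median balanced difference was -0.22. The sign held below in 11 (31.4%) and above in 4 (11.4%), against 12.5% and 17.6% of all genes. Without the first double-mutant array the median departure was -0.20 and without the second -0.62. H19, the noncoding RNA beside Igf2, read 1.76 and 2.10, 1.40 and 1.04, then -0.45 and 0.79. All single-mutant arrays were above the double mutant, and the departure was -2.99 (SE 0.61, limma adjusted p = 0.223). Igf2, described above, stayed more than 2 above wild type on both double-mutant arrays, while H19 did not. Cdkn1c, a cell cycle inhibitor, read 1.15 and 2.25, 0.06 and 0.55, then -0.52 and 0.12, a departure of -2.20. The 4 genes held above were Ascl2 at 1.78, Phlda2 at 1.05, Nap1l4 at 0.95 and Rasgrf1 at 0.47.

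The other lists had medians closer to 0. For p53 targets the median departure was -0.0048 over 33 genes. The sign held above in 8 (24.2%) and below in 5 (15.2%), against 17.6% and 12.5% of all genes. Gadd45a, a growth arrest gene, read 0.65 and 0.59, 0.36 and 0.46, then -1.20 and -0.58, a departure of -1.93 (SE 0.29, adjusted p = 0.155 in limma). Tigar, a regulator of glycolysis, was high in the PARP-1 null at 2.62 and 2.38 and lower in the double mutant at 0.81 and 0.54, a departure of -1.77. Aen, an apoptosis nuclease, was below wild type throughout and lay above the sum by 1.66.

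For antioxidant genes the median was 0.00 over 36 genes. The sign held above in 5 (13.9%) and below in 7 (19.4%), against 17.6% and 12.5% of all genes. Nqo1, a quinone reductase, read -1.54 and -1.11, -0.52 and -0.16, then -0.18 and 0.11, a departure of 1.63. Of 35 Hox genes, which set position along the body axis, 9 (25.7%) were held above and 2 (5.71%) below, with a median of -0.01. Hoxd13 read -1.52 and -1.76, -1.65 and -1.83, then -1.17 and -0.84, a departure of 2.38 (SE 0.21, limma adjusted p = 0.0628) with a balanced difference of 0.69. Ribosomal protein genes had a median of -0.26, but between -1.36 and 0.91 over the array choices, and oxidative phosphorylation genes a median of 0.07, between -0.61 and 0.75.

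**Figure D4:**
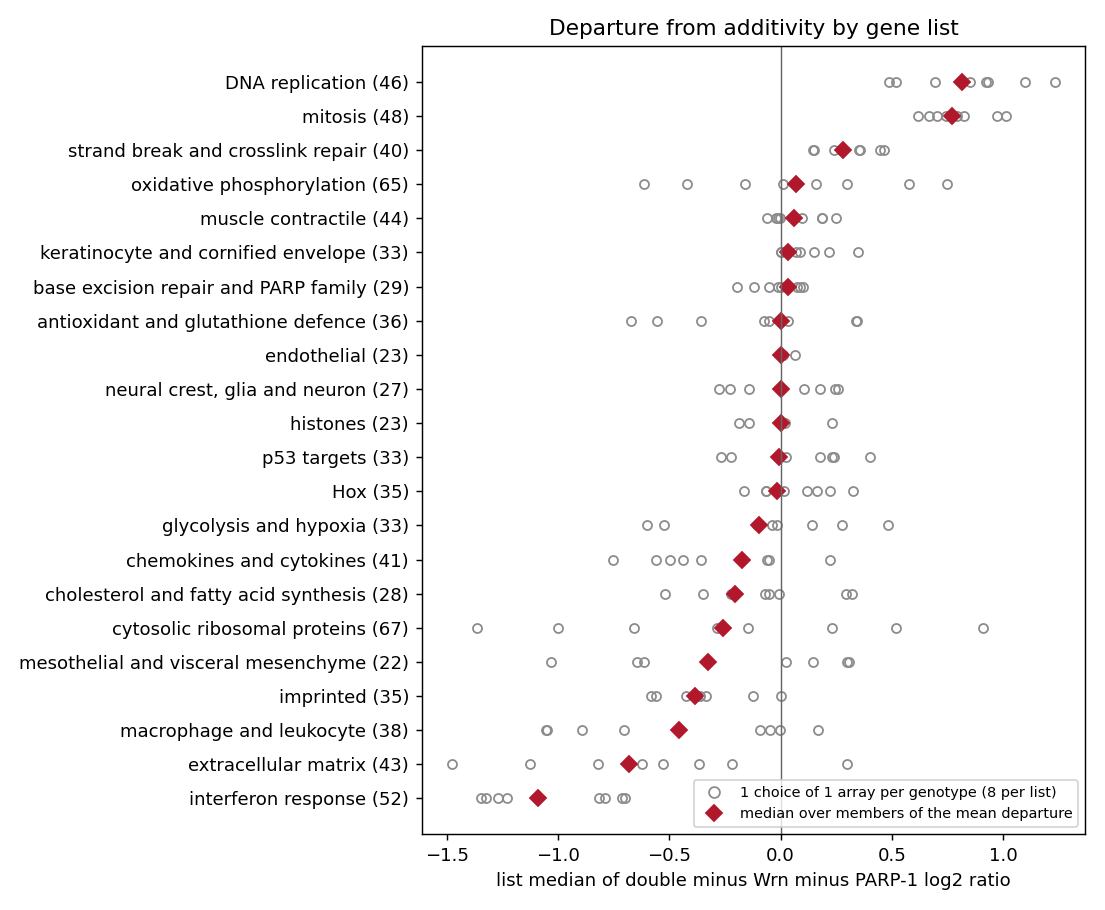
Median departure on the log2 scale (horizontal axis) of 22 gene lists, with the number of measured genes in brackets; the red diamond is the median over members of the mean departure and each grey circle the same median for 1 of the 8 choices of 1 array per genotype. All circles lie above 0 for DNA replication, mitosis and strand break repair, and all lie below 0 for interferon response, while the circles of ribosomal protein and matrix genes lie on both sides.

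Markers of other cell types gave mixed values. Sox10, a neural crest and glial factor, read 0.42 and -0.22 on the Wrn mutant arrays, 2.29 and 2.18 with PARP-1 null cells, and 3.88 and 3.30 with double-mutant cells. The genotypes do not overlap, and the departure was 1.26 (SE 0.40, adjusted p = 0.361 in limma) with a balanced difference of 2.43. Foxd3, another neural crest factor, read 0.66 and 0.22, 1.08 and 1.18, then 2.05 and 1.56, a departure of 0.24, so it lay near the sum. Erbb3, the other neural crest marker measured, read -0.44 and -0.04, -0.35 and -0.87, then -0.19 and -0.25. It was below wild type on all 6 arrays, and its departure was 0.63. That value is the mean of 2 spots, whose departures differed by 0.47, and 1 spot value was exactly 0. The wider list of 27 neural crest, glia and neuron genes had a median departure of 0.00. Over the 3 neural crest markers measured the median departure was 0.63, over 6 epithelial markers 0.09, over 6 muscle markers -0.08 and over 6 endothelial markers -0.06. It was -1.28 over the 4 mesothelial markers, whose medians differed between the Wrn mutant arrays as given above, and -0.49 over the 9 macrophage markers.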

How the data were processed

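Per the labels, wild-type (Cy5) and mutant (Cy3) RNA shared each of 6 Agilent arrays. The authors deposited 1 log10 ratio for each of 22393 spots. Base and direction were read from the values (bound at 2; Parp1); the sources used here state neither, nor the centring or background method. Array medians were 0, and 16.9% to 23.7% of spots were exactly 0. Intensities were not used, so depth is unknown and array number limits precision.

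Values were multiplied by 3.32 (log2). Platform annotation gave 18218 spots 1 symbol, 16 several and 4159 none. Spots of a gene were averaged. limma 3.58.1 in R 4.3.3 (data.table package, version 1.17.8) fitted 20679 features with 3 residual degrees of freedom (prior 0.66), and p was adjusted by Benjamini-Hochberg over all. The fit was tested on simulated data. Named genes were the 12 per direction, and 4 per pattern and direction, with the largest array choice nearest 0 among genes without exact 0 or bound values, filled this way since none passed; Parp1 and Wrn; and up to 4 per list plus some members against it. Of 22 lists with 926 entries, 841 entries were measured. Patterns were assigned in the order emergent, returned, opposed, shared, exceeding, other. Sequences are from RefSeq (GRCm38.p6), the first promoter entry of a gene. Plots used matplotlib 3.10.9 in Python 3.11.15. Members and lists were chosen with earlier results of these data known. Replicate numbers follow accession order and were not used to pair arrays in the main fit. Alternatives were other normalizations, a robust prior, filters, single spots, a replicate block and each array left out.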

Additional observations from a re-analysis of the deposited data

Results flagged for a closer look

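Of the 24 ranked genes, 19 had an effect of 1 lesion with opposite directions alone and on top of the other lesion. The genes were ranked by the departure, which is the difference of both effects, so the ranking itself favours opposite directions and the count supports nothing further. Over all 16504 genes, 1800 (10.9%) met the same description, 1004 (6.08%) for PARP-1 loss and 1383 (8.38%) for the Wrn deletion, and among the 1492 genes with a departure of 1 sign and at least 1 in size 726 (48.7%) did. Every array pair of one contrast moved one way and every pair of the other contrast the opposite way, where each contrast sets the genotype with the lesion against its background without it. The test of this difference is that of the departure itself, and none of these genes passed it after adjustment in limma. Because the effects alone carry the wild-type channel and the others do not, a dye bias is in one of them and not in the other, and its part was not tested.

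Loss of PARP-1 went in opposite directions alone and on the Wrn mutant for 13 genes. The departures, which are the difference of both effects, were 2.86 for Bcl2l15, 2.88 for Gpx2, 3.60 for Mcpt8, 4.45 for Prl2c3 and 3.85 for Serpinb2. They were -2.99 for H19, -2.73 for Igf2, -4.42 for Iigp1, -2.89 for Lama1, -3.17 for Mest, -2.72 for Phyhd1, -3.64 for Rtl3 and -3.68 for Scara5. Rtl3 is an example: PARP-1 loss read 0.84 alone and -2.80 on the Wrn mutant. For Serpinb2 it read -1.44 alone and 2.42 on the Wrn mutant. The second effect could be small: for Igf2 the values were 2.31 and -0.42.

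The Wrn deletion went in opposite directions alone and on the PARP-1 null for 17 genes, 11 of them also in the first group. The others had departures of -3.16 for Aspn, -3.27 for Car6, 4.21 for Cck, 2.89 for Defb6, 4.02 for Ppbp and 4.26 for S100a8. For S100a8 the deletion read -1.17 alone and 3.09 on the PARP-1 null, and for Cck -2.42 and 1.80. For Defb6 the second effect was small, at -2.57 alone and 0.32 on the PARP-1 null.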

How the results depend on the processing

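With 2 arrays per genotype, the count of genes past the threshold moved most with single arrays. Leaving out each array in turn gave 0 to 356 genes for the departure, 0 to 152 above and 0 to 213 below, and 0 to 222 for the balanced difference. Departures of 1 sign and at least 1 in size numbered 1728 to 2537, with 926 to 1197 above and 753 to 1344 below, where fewer array choices must agree by construction. Quantile normalization gave 88 genes (52 above, 36 below) and 1307 held above. Without features with an exact 0, 80 genes passed (49 above, 31 below) and 2 for the balanced difference. Added after seeing the data, leaving out values at the bound as well gave 48 (32 above, 16 below) and 3, and leaving out spots without a single symbol with exact zeros gave 0 and 4. Of 4175 spots without a single symbol, 316 (7.57%) lay below -2 on all 6 arrays, with a median departure of 6.58, and 22 named genes did. Scale normalization, the robust prior, single spots and spots with a symbol alone gave 0 for the departure. The replicate block also gave 0 and changed no call. Same-numbered arrays deviated together with correlations of -0.11, -0.17 and 0.17 over all genes. Some lists still moved the same way from the first to the second array of each genotype. Ribosomal protein medians went from 0.01 to 0.42, from 0.22 to 0.94 and from 0.04 to 1.22. Mitosis medians did not, with -0.38 to -0.24, -0.12 to 0.16 and 0.68 to 0.47. Whether same-numbered arrays share a batch was not tested.

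The list medians of mitosis, DNA replication and interferon response kept their sign under every alternative run. Among lists near 0, base excision repair moved to 0.11 under scale normalization and ranged from -0.15 to 0.13 with arrays left out. Neural crest genes moved to -0.20 under scale normalization and -0.19 without zeros and bound values. Endothelial genes gave -0.0195 under quantile normalization, 0.12 without exact zeros (with or without the spots that lack a symbol), 0.18 without bound values too, and 0 to 0.11 with arrays left out. Histone genes gave 0.0707 under the 3 zero filters. With arrays left out, p53 targets ranged from -0.15 to 0.24, keratinocyte genes from -0.0236 to 0.23 and Hox genes from -0.16 to 0.23. The departure of Parp1, near 0, turned to 0.46 under scale and 0.24 under quantile normalization, 0.0436 without PARP-1 null array 2 and 0.0797 without double-mutant array 1, and its range with arrays left out was -0.30 to 0.0797. That of Wrn turned to 0.0297, 0.0655 and 0.13 without the first array of each genotype in the order used here, within a range of -0.33 to 0.13. Of 2220 values of named genes, 77 passed the threshold only under an alternative. The cause of these shifts was not tested.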
